A study of Homo sapiens with 14 samples.

Results

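Replication-dependent histone genes encode the bulk of the histones that package newly copied DNA. They were followed here in OVCAR4, an established line of high-grade serous ovarian cancer, after small interfering RNA (siRNA) pools had been used to lower single transcription factors. The members were the rows whose gene maps to a protein-coding symbol of the H1-1 to H1-6, H2AC, H2BC, H3C or H4C series, whatever its counts. They came to 71 of the 58219 gene rows and to 70 symbols, since H2BC12L had 2 rows. By family these were 6 linker histone H1 rows, 17 H2A, 20 H2B, 13 H3 and 15 H4 rows. On hg38, 55 lay on chromosome 6, 13 on chromosome 1 and 3 elsewhere.

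Each of 7 groups had 2 libraries. Both control groups received non-targeting siRNA, siNT1 the Dharmacon ON-TARGETplus Non-targeting Control Pool and siNT2 a custom Dharmacon non-targeting pool. The other groups received Dharmacon siRNA products against PAX8 (siPAX8), SOX17 (siSOX17), PAX8 and SOX17 together (siDual), MECOM (siMECOM) or WT1 (siWT1). In every group 300000 cells were reverse transfected with 120 nM siRNA, medium was renewed at 24 h and total RNA was taken at 72 h, so all groups share transfection. How the concentration was divided between the pools in siDual is not given in the sources used here, and neither is the origin of the 2 libraries of a group, which may be 1 culture or more. The p-values therefore measure the spread between these libraries, which may be technical. The data come from 1 line, and whether RNA was selected by its poly(A) tail before sequencing is not given in the sources used here.

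Messages of replication-dependent histone genes are unusual. Most end in a conserved stem-loop instead of a poly(A) tail: the stem-loop binding protein SLBP holds it, the U7 small nuclear ribonucleoprotein directs the cut just behind it, and the messages are made and kept mainly while DNA is being copied. NPAT, a substrate of cyclin E and CDK2, switches on the clusters at the start of S phase. Some members also make longer messages that run past the stem-loop to a poly(A) site, and these can persist in cells that are not dividing. Replacement histones such as H3.3 and H2A.Z come from ordinary polyadenylated genes and are made throughout the cell cycle.

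Where the gene models of GENCODE 29 run past the coding sequence, the stem-loop can be read in them. The search was for 16 bases that start with GGC, end with GCC and form 6 base pairs around a loop of 4. The loop had to start with T, and pairs of G with T were allowed. Such a run was present in the models of 31 members, in 6 versions. Other forms were not searched for, so the likeness of the versions is partly set by this pattern. The 17 members with the commonest version included genes of H2A, H2B and H3, and 2 versions were held by 5 and 3 H4 genes and by no other family. The examples below are shown because together they hold each of the 6 versions, in members whose values are given further on. Each is written 5′ to 3′ with the stem-loop in capitals and up to 5 bases before and 6 after it in lower case:
H2AC6: ccaaaGGCTCTTTTCAGAGCCccccta
H2BC21: ccaaaGGCTCTTTTCAGAGCCacccac
H2BC5: ccaaaGGCTCTTTTAAGAGCCacgcat
H3C6: ccaaaGGCTCTTCTCAGAGCCaaccac
H2AC11: ccaacGGCTCTTTTCAGGGCCacccac
H4C8: ccaaaGGCCCTTTTCAGGGCCgcccac
H4C9: aaaaaGGCCCTTTTTAGGGCCcctaag
With the flanks printed, these stretches lie in the 3′ UTR at chr6:26124664-26124690, plus strand, for H2AC6; at chr1:149886182-149886208, minus strand, for H2BC21; and at chr6:26158582-26158608, plus strand, for H2BC5. The stretch of H3C6 lies at chr6:26225591-26225617, plus strand, and that of H2AC11 at chr6:27133510-27133536, plus strand. H4C8 has its stretch at chr6:26285125-26285151, minus strand, and H4C9 at chr6:27139649-27139675, plus strand. The models go on for up to 1128 bases after the stem-loop in H2AC6, 1729 in H2BC21, 1862 in H3C6, 1655 in H4C8 and 212 in H4C9. All these sequences come from the GENCODE 29 transcripts on hg38.

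Each library held between 40832825 and 49803860 counts over genes. PAX8 stood at 196, 192, 206 and 225 CPM (counts scaled to 1000000 per library after adjustment of the library total by its TMM factor) in the 4 control libraries and at 32.8 and 38.3 in siPAX8. SOX17 fell from a lowest control value of 104 CPM to 15.7 and 13.1 in siSOX17, and MECOM from 125 to 8.76 and 16.4 in siMECOM. WT1 was barely detected, at 0.330 to 0.430 CPM in controls, and at 0 and 0.0191 in siWT1. MECOM was also lower in siSOX17 (log2 fold change -1.54 ± 0.14 (SE), adjusted p = 2.01e-08), and SOX17 was higher in siMECOM (log2 fold change 1.05 ± 0.09 (SE), adjusted p = 2.04e-08). PAX8 fell in siWT1 to 112 and 117 CPM (log2 fold change -0.83). It was at 266 and 273 CPM in siSOX17 and at 52.8 and 50.6 in siDual. MECOM was at 47.5 and 51.1 CPM in siDual and 97.7 and 97.6 in siPAX8. SOX17 was at 15.9 and 17.7 CPM in siDual and 77.8 and 82.9 in siPAX8. Of the 11 markers of a serous line every one was tested, with a summed level of 4795 to 5609 CPM in controls, 11555 and 9104 in siPAX8, 14282 and 14513 in siSOX17 and 22135 and 19293 in siDual. It was 6099 and 5299.5 in siMECOM and 4530.1 and 4286 in siWT1. The single markers moved in both directions: 5 were called higher and 4 lower in siPAX8, 7 and 4 in siSOX17, and 6 and 4 in siDual. Of all genes, 26.9 to 28.9% were called higher and 25.4 to 27.3% lower in these groups. In siMECOM 3 markers were higher and 4 lower, and in siWT1 0 and 7. The shares of all genes were 16.5% higher and 16.1% lower in siMECOM and 17.7% and 19.8% in siWT1. KRT8 and KRT18 rose most in siDual (both 2.64 on the log2 scale), where SOX17, itself a listed marker, fell (-2.72). The 12 markers of blood, vessel and stromal cells summed to 66.5 to 73.7 CPM in controls, 102.6 to 132.7 in siPAX8, siSOX17 and siDual and 41.6 to 47.7 in siMECOM and siWT1. Most of that came from COL1A1 and CD68, while the leukocyte gene PTPRC stayed at or under 0.13 CPM in every library. Of the 12, 9 were tested, and in siPAX8 7 were called higher and 1 lower. The largest rises there were HBB (3.25 on the log2 scale), DCN (2.30) and LUM (2.18). Numbers called higher and lower were 2 and 3 in siSOX17, 3 and 3 in siDual, 0 and 2 in siMECOM and 1 and 4 in siWT1. Mitochondrial genes took 5.34 to 6.13% of counts in controls and 7.91 to 10.98% in the other groups, siWT1 included. The part of these differences in the histone results was not tested.

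Histone genes took 0.0123 to 0.0168% of the counts in controls. That share was 0.0228 and 0.0273% in siPAX8, 0.0220 and 0.0255% in siSOX17, 0.0242 and 0.0311% in siDual, and 0.0281 and 0.0348% in siMECOM. In siWT1 it was 0.0104 and 0.0126%. All libraries of the first 4 knockdown groups lay above all controls, and the siWT1 range of shares overlapped with that of the controls at its upper end. In summed CPM, which uses the adjusted library total, siWT1 was at 95.8 and 115.7, below all controls (118 to 169). Replicate 2 was higher than replicate 1 in each of the 7 groups, so the summed level was also compared within a replicate number. In siPAX8 it was then 1.97 and 1.79 times the control mean, in siSOX17 1.94 and 1.81, in siDual 2.17 and 2.14, in siMECOM 2.20 and 2.05, and in siWT1 0.785 and 0.742. In bulk libraries, more cells that express these genes and more RNA per cell cannot be told apart.

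Few members carried most of that signal. H2BC12, H1-2, H4C9, H2BC5 and H2AC6 made up 75.4% of all member counts, summed over the 14 libraries. Compared per length, as CPM per kilobase of the counted exons averaged over all 14 libraries, H2BC12 had the highest mean of the H2B genes at 136.1, ahead of H2BC5 at 24.2 and H2BC4 at 3.15. Among the linker histones H1-2 stood at 66.0 and H1-4 at 0.306 CPM per kilobase. H2AC6 (10.5), H2AC25 (9.96) and H2AC8 (3.16) led the H2A genes on the same scale. The leading H4 genes were H4C9 at 21.9, H4C3 at 3.84 and H4C8 at 2.35, and the leading H3 genes were H3C10 at 2.52, H3C4 at 1.88 and H3C12 at 1.43. These means include groups in which the genes moved, and the order in the controls alone differed below the first places. There H2BC11 (2.24) stood above H2BC4 (1.53) and H2AC20 (3.69) above H2AC8 (2.05). H3C7 (1.88) and H3C12 (1.82) stood above H3C4 (1.34), and H4C3 (5.00) lay further above H4C8 (0.936). Such levels depend on the gene models: H2BC12 is counted over its 381 coding bases, but H2AC6 over 1668.

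A filter on low counts left 44 of the 71 members for testing: 2 of H1, 11 of H2A, 14 of H2B, 9 of H3 and 8 of H4. The other 27 held 585 reads in all, 0.434% of the member reads, and at most 102 each. H2AC1 and H2BC1, a head-to-head pair known from the testis, had no read in any library, and neither had H3C15, H4C6 or H4C7. A count of 0 allows up to 3 reads, which is 0.0571 to 0.0798 CPM at these depths, counting error only. The germ line list used here also held H1-6 and H1-1, which had a few reads, with at most 0.0401 CPM and at most 0.0880 CPM. Counts of H3C14 and H3C15, of H4C14 and H4C15, of H2AC18 and H2AC19, and of the H2BC12L rows are uncertain, because these are near-identical copies and the treatment of reads that map to several places is not given in the sources used here. H2BC12 also shares 28.4% of its 100-base windows with H2BC12L, whose rows held 7 and 26 reads against its 32588. Passing the filter needs reads in at least a few libraries, so the counts below describe the 44 and not every member.

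**Figure D1:**
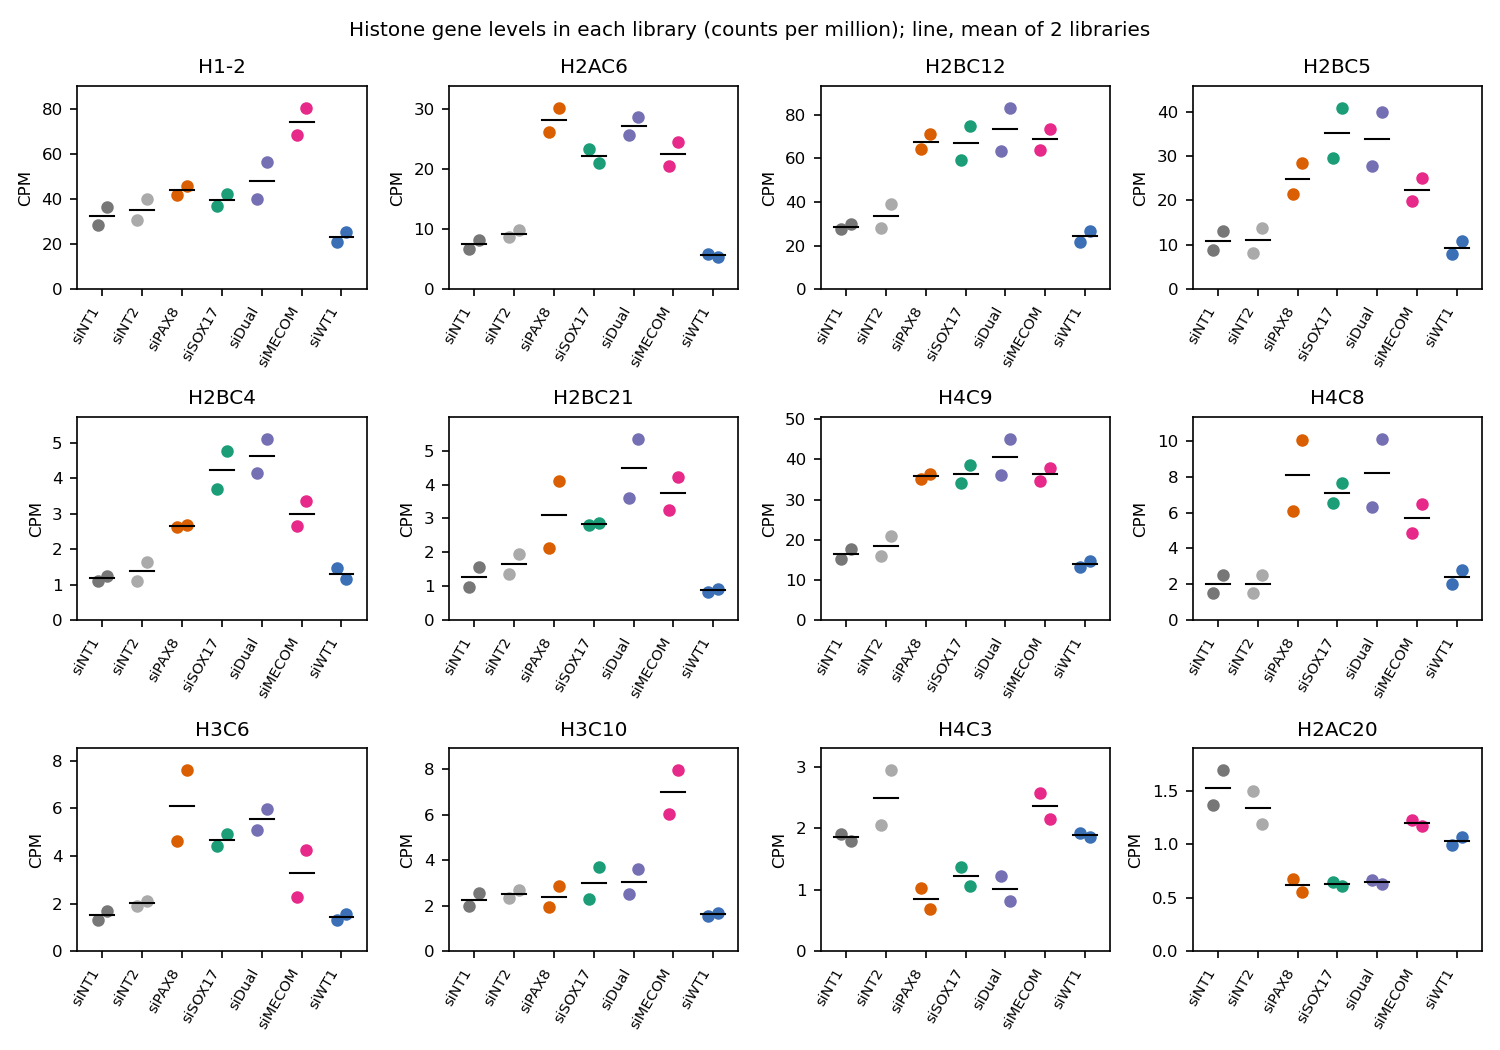
Level of 12 histone genes in each library, in CPM (linear axis from 0), by siRNA group; each point is 1 library and the line is the mean of the 2 libraries of a group. H2AC6 lies between 20.6 and 30.2 in all libraries of siPAX8, siSOX17, siDual and siMECOM and at or under 9.79 elsewhere, while H4C3 and H2AC20 are lowest in siPAX8, siSOX17 and siDual.

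In siPAX8 histone genes were called in both directions, in shares near those of all genes. Of the 44 tested, 15 rose and 7 fell against the 4 control libraries at an adjusted p under 0.05 in the quasi-likelihood test of edgeR, adjusted by Benjamini-Hochberg over all 21032 genes tested. The background in that comparison was high: 26.9% of all genes were called higher and 25.4% lower, so the members' shares of 34.1% and 15.9% are near it. Their median log2 fold change was 0.06, against 0.00 over all genes. The H2B genes gave 8 risers and no faller out of 14, and the H3 genes 1 riser and 3 fallers out of 9. Calls went both ways in H2A too, with 3 risers and 2 fallers out of 11, and in H4, with 2 and 2 out of 8. Of the 2 H1 genes, 1 rose and none fell.

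H2AC6, a core histone H2A gene, had 6.76, 8.15, 8.69 and 9.79 CPM in the controls and 26.2 and 30.2 in siPAX8. The groups did not overlap, and H2AC6 rose 3.40-fold (log2 fold change 1.76 ± 0.10 (SE), adjusted p = 2.77e-11). H4C8 stood at 1.53, 2.54, 1.502 and 2.53 CPM in controls and at 6.11 and 10.0 in siPAX8. This H4 gene had the largest increase of the 44 (log2 fold change 1.99 ± 0.24 (SE), adjusted p = 8.19e-07). H3C6 was the 1 riser among the H3 genes, at 1.32, 1.68, 1.90 and 2.11 CPM in controls and 4.61 and 7.62 in siPAX8, with no overlap (log2 fold change 1.81 ± 0.21 (SE), adjusted p = 6.62e-07). H2AC25, an H2A gene of the small cluster on chromosome 1, went from a control mean of 4.48 to 12.3 and 11.9 CPM (log2 fold change 1.46 ± 0.13 (SE), adjusted p = 2.81e-08), and its neighbour H2BC26 from 0.382 to 0.870 and 1.14 (log2 fold change 1.37 ± 0.36 (SE), adjusted p = 0.00331). The most abundant members moved too. H2BC12 had 27.4, 29.8, 28.0 and 39.2 CPM in controls and 64.2 and 71.2 in siPAX8 (log2 fold change 1.13). H4C9 had 15.2, 17.8, 15.8 and 20.96 CPM in controls and 35.2 and 36.5 in siPAX8 (log2 fold change 1.04). Both more than doubled, and neither overlapped with the controls. Lack of overlap was common in this comparison. Both siPAX8 libraries lay above all 4 controls in 31% of all genes and below them in 30.5%. The shares of the 44 members were 34.1% and 20.5%.

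The fallers were mostly low in count. H4C3, the second H4 gene per length, had 1.91, 1.80, 2.04 and 2.95 CPM in controls and 1.02 and 0.690 in siPAX8, all controls lying higher (log2 fold change -1.32 ± 0.23 (SE), adjusted p = 8.04e-05). H2AC20 had 1.37, 1.70, 1.502 and 1.19 CPM in controls and 0.679 and 0.557 in siPAX8 (log2 fold change -1.22 ± 0.22 (SE), adjusted p = 0.000101). H3C7 went from 0.777, 0.840, 0.521 and 0.946 to 0.234 and 0.267 CPM (log2 fold change -1.61 ± 0.37 (SE), adjusted p = 0.00105). These 3 kept their call each time 1 library was left out and in each alternative that tested them, since H3C7 did not pass the filter of 1 CPM in at least 2 libraries. The other 4 did not: H4C4 rested on 2 and 3 reads in siPAX8, a ratio of 0.270 to controls with an exact 95% counting interval of 0.0830 to 0.688. H2AC14 (log2 fold change -1.33), H3C12 (-0.82) and H3C8 (-0.70) also lost the call when single libraries were left out. The number of fallers was 4 without siNT1 replicate 2, without siNT2 replicate 2 or without siPAX8 replicate 1. H2AC14 shares 80.9% of its 100-base windows with H2AC13, and H3C12 overlaps the locus of H2AC17, so their counts are uncertain.

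The 6 members listed as having polyadenylated messages in addition, H1-2, H2AC6, H2BC4, H2BC5, H2BC12 and H2BC21, each rose in siPAX8, with a median log2 fold change of 1.10. Outside the list, 9 of 38 rose and 7 fell, with a median of -0.10. These counts are near the 26.9% of all genes called higher and 25.4% lower. H2BC5, on chromosome 6, went from 8.74, 13.2, 8.21 and 13.9 CPM to 21.4 and 28.5. H2BC4 went from 1.11, 1.25, 1.10 and 1.65 to 2.63 and 2.67 CPM. Neither gene overlapped with the controls. H1-2 changed least, from 28.5, 36.4, 30.6 and 40.0 to 41.8 and 46.0 CPM (log2 fold change 0.37 ± 0.13 (SE), adjusted p = 0.0238), and lost its call without siNT1 replicate 1 (and likewise without siNT2 replicate 1 or siPAX8 replicate 2). Its call was also lost with siNT2 as the only control and with DESeq2 (adjusted p = 0.0917). The 6 genes summed to 73.5 to 106 CPM in controls and 158 and 183 in siPAX8.

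**Figure D2:**
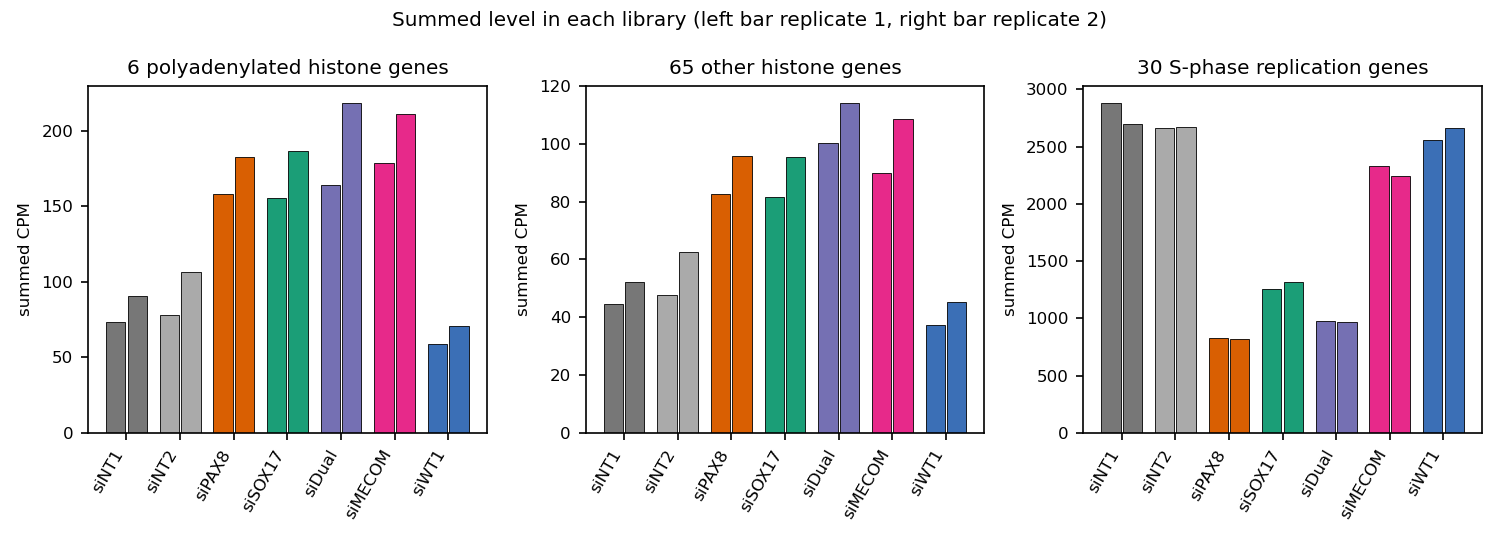
Summed level in each of the 14 libraries, in CPM, of the 6 listed polyadenylated histone genes, the other 65 histone rows and 30 S-phase replication genes (bars start at 0; left bar replicate 1, right bar replicate 2). The histone sums are above all controls in siPAX8, siSOX17, siDual and siMECOM, whereas the S-phase genes are at 821 to 1320 in siPAX8, siSOX17 and siDual and at 2242 to 2330 in siMECOM.

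In siSOX17, 14 of the 44 members rose (31.8%) and 8 fell (18.2%), near the background of 27.2% of all genes higher and 25.5% lower. The median of the 44 was 0.23 on the log2 scale, against -0.01 for all genes. The controls are the same 4 libraries as for siPAX8, so the 2 comparisons are not independent, and the values are set side by side. H2BC4 rose most among the H2B genes, to 3.70 and 4.77 CPM, above its siPAX8 libraries (log2 fold change 1.73 ± 0.18 (SE), adjusted p = 1.51e-07). H2BC5 reached 29.6 and 40.9 CPM, also above siPAX8 (log2 fold change 1.68 ± 0.20 (SE), adjusted p = 6.74e-07). H4C8 stood at 6.51 and 7.66 CPM, within the siPAX8 range (log2 fold change 1.80 ± 0.24 (SE), adjusted p = 4.34e-06). H2BC6, an H2B gene of the same chromosome 6 cluster, rose from 0.353, 0.723, 0.821 and 0.946 to 1.64 and 2.52 CPM (log2 fold change 1.57 ± 0.29 (SE), adjusted p = 0.000136), and H2BC8 from 0.801, 1.66, 0.921 and 1.98 to 3.33 and 3.95 CPM (log2 fold change 1.44 ± 0.25 (SE), adjusted p = 8.54e-05). Of the polyadenylated list 5 of 6 rose, with a median of 1.26. H1-2 was the exception at 37.0 and 42.1 CPM (log2 fold change 0.22 ± 0.13 (SE), adjusted p = 0.175).

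Among the SOX17 fallers, H2AC20 was at 0.646 and 0.610 CPM, below all 4 controls (log2 fold change -1.19 ± 0.22 (SE), adjusted p = 0.000174). Both siSOX17 libraries lay below all 4 controls in 30.8% of all genes and 20.5% of the members tested. H3C7 was at 0.348 and 0.345 CPM (log2 fold change -1.14 ± 0.36 (SE), adjusted p = 0.0111), and H4C3 at 1.37 and 1.06 CPM (log2 fold change -0.82 ± 0.22 (SE), adjusted p = 0.00464). H3C2 had 1 read in each siSOX17 library against 40 in the controls together, a ratio of 0.121 with an exact 95% counting interval of 0.0142 to 0.468. H2AC16 rested on 1 and 5 reads, a ratio of 0.260 with an interval of 0.0915 to 0.602. H2AC14 had 3 and 4 reads and a ratio of 0.293 (0.113 to 0.642). These lie at the limit of what such depth resolves. The number of fallers was 3 without siSOX17 replicate 1 and 5 without siSOX17 replicate 2, and the calls of H3C7 and H4C3 were among those lost without replicate 2.

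With both factors lowered, 18 members rose (40.9%) and 4 fell (9.09%), beside a background of 28.9% higher and 27.3% lower. H2AC25 rose most, to 22.2 and 17.3 CPM (log2 fold change 2.15 ± 0.13 (SE), adjusted p = 6.39e-11). The other largest increases were those of H4C8 at 6.33 and 10.1 CPM, H2BC26 at 1.20 and 1.78, H2BC4 at 4.15 and 5.11 and H2BC8 at 4.02 and 5.42, with log2 fold changes of 2.02, 1.95, 1.86 and 1.82. All 6 polyadenylated members rose, with a median of 1.62. The fallers were H3C7 (-1.51), H2AC14 (-1.17), H2AC20 (-1.15) and H4C3 (-1.09). Of these H2AC14, with 4 and 7 reads, lost its call in 5 of 6 fits that left out a library.

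Direct contrasts of siDual with the single knockdowns called few members. Against siPAX8, 2 of 44 were higher and none lower, beside 11% and 8.55% of all genes. Those 2 were H2AC25 (log2 fold change 0.70 ± 0.15 (SE), adjusted p = 0.00229) and H2BC4 (log2 fold change 0.81 ± 0.20 (SE), adjusted p = 0.00619), and each lost the call without 1 of the siDual libraries. Against siSOX17, 2 were again higher and none lower, beside 7.85% and 7.82% of all genes. They were H2AC25 (log2 fold change 0.97 ± 0.15 (SE), adjusted p = 0.000177) and H2BC26 (log2 fold change 1.37 ± 0.40 (SE), adjusted p = 0.0242). H2AC25 held this second call without any single library, and H2BC26 lost it in 3 of 4 such fits. For the counts of 0 lower, DESeq2 also called 0, and an unadjusted p under 0.05 was reached by 0 members against siPAX8 and by 1 against siSOX17.

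Relative to the sum of the single changes on the log2 scale, the siDual change was lower in 9 members and higher in 2, beside 13% and 12% of all genes. The 9 included H2AC6 (log2 fold change -1.47 ± 0.16 (SE), adjusted p = 1.2e-06) and H4C8 (log2 fold change -1.77 ± 0.36 (SE), adjusted p = 0.00105), which were about as high in each single knockdown as in siDual.

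**Figure D3:**
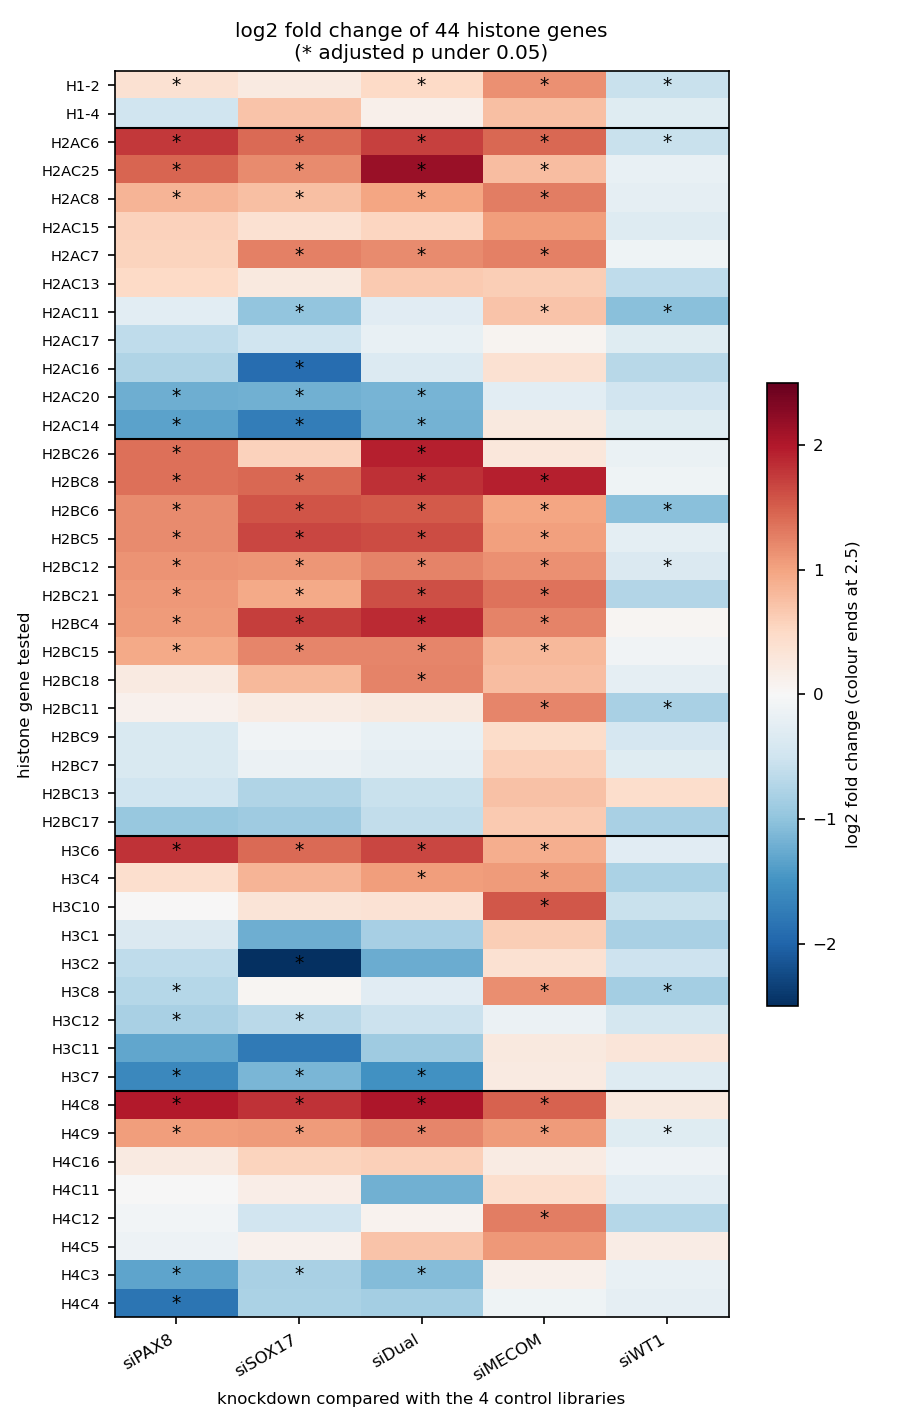
log2 fold change against the 4 control libraries of the 44 histone genes tested (rows, by family and by their siPAX8 value) in the 5 knockdown groups (columns); red is higher, blue lower, and an asterisk marks an adjusted p under 0.05. The H2B block is mostly red in the first 4 columns, the siMECOM column has 21 asterisks and none on blue, and the siWT1 column has 8, all on blue.

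In siMECOM every called member was higher. Of the 44 tested, 21 rose and none fell, beside a background of 16.5% of genes higher and 16.1% lower. That is 47.7% of the members, and their median log2 fold change was 0.78, against 0.01 over all genes. For the count of 0 lower, no member reached an unadjusted p under 0.05 in that direction and DESeq2 called 0 as well. Each family had risers: 1 of 2 in H1, 5 of 11 in H2A, 8 of 14 in H2B, 4 of 9 in H3 and 3 of 8 in H4. Among the H4 risers, H4C12 passed the filter through siMECOM alone. Medians by family ran from 0.62 in H3 to 0.94 in H1.

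H2BC8 rose most in siMECOM, from 0.801, 1.66, 0.921 and 1.98 CPM in controls to 4.91 and 5.47, with all 6 libraries in separate ranges (log2 fold change 1.95 ± 0.24 (SE), adjusted p = 3.1e-06). Both siMECOM libraries lay above all 4 controls in 25% of all genes and 52.3% of the members tested. H3C10, the leading H3 gene per length, had 1.98, 2.54, 2.32 and 2.68 CPM in controls and 6.03 and 7.98 in siMECOM (log2 fold change 1.56 ± 0.19 (SE), adjusted p = 2.85e-06). The same gene had 1.93 and 2.87 CPM in siPAX8 and 2.31 and 3.69 in siSOX17, where it was not called. H1-2, the main linker histone gene, rose to 68.2 and 80.5 CPM, its highest level in the series (log2 fold change 1.13 ± 0.13 (SE), adjusted p = 1.42e-06). H2AC6 reached 20.6 and 24.5 CPM (log2 fold change 1.44 ± 0.10 (SE), adjusted p = 2.59e-09) and H2BC21 3.26 and 4.23 from 0.990, 1.58, 1.36 and 1.96 (log2 fold change 1.35 ± 0.24 (SE), adjusted p = 0.000197). H4C8 was at 4.84 and 6.50 CPM, above the controls and overlapping with siPAX8 (log2 fold change 1.48 ± 0.24 (SE), adjusted p = 0.000107). The polyadenylated list rose in 6 of 6 members with a median of 1.19. Outside it 15 of 38 rose with a median of 0.72, beside 16.5% of all genes. H4C12 was called in siMECOM (log2 fold change 1.28 ± 0.40 (SE), adjusted p = 0.0195) on 0.308 and 0.312 CPM. All its 100-base windows also occur in H4C11, so it is uncertain, and its call was lost without either siMECOM library. H4C12 had 14 and 16 reads in siMECOM and at most 8 in any other library. It thus passed the filter through siMECOM alone, so its call, counted in the 21, is no support for a rise there. The 21 became 15 without siMECOM replicate 2 and 16 with siNT2 as the only control.

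The next genes, which did not rise in siPAX8, illustrate the difference and were chosen after their values were seen. H4C3 was at 2.57 and 2.14 CPM in siMECOM, inside the control range, and at 1.02 and 0.690 in siPAX8. H3C8 was at 1.69 and 1.48 CPM in siMECOM, above all controls (0.801, 0.801, 0.581 and 0.682), and at 0.382 and 0.490 in siPAX8. H2BC11 was at 4.36 and 5.47 CPM against 1.67, 2.29, 1.86 and 2.68 in controls and 2.08 and 2.49 in siPAX8. A direct contrast of siMECOM with siPAX8, which needs no control library and was added after the values were seen, called 12 members higher and 4 lower, beside 24% and 23.1% of all genes. H3C8 had the largest difference (log2 fold change 1.86 ± 0.28 (SE), adjusted p = 1.96e-05). H3C7 (log2 fold change 1.84 ± 0.40 (SE), adjusted p = 0.00075) and H3C10 (log2 fold change 1.55 ± 0.23 (SE), adjusted p = 1.41e-05) were also among the 12. The highest values of the other families in this contrast, called or not, were 1.72 in H4, 1.59 in H2B, 1.58 in H2A and 1.25 in H1. H4C3 was 2.74-fold higher in siMECOM than in siPAX8 (log2 fold change 1.45 ± 0.25 (SE), adjusted p = 9.69e-05). H2AC6 (-0.32), H2AC25 (-0.68), H3C6 (-0.89) and H2BC26 (-1.09) were the 4 lower. Those 4 became 1 without siMECOM replicate 1 or without siPAX8 replicate 2, H2AC25 keeping its call in each fit.

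In siWT1 none of the 44 rose and 8 fell, beside a background of 17.7% of genes higher and 19.8% lower. The 8 make 18.2% of the members, near the background, with a median log2 fold change of -0.31. None reached an unadjusted p under 0.05 in the higher direction, and DESeq2 called 0 higher. H2AC6 had 5.89 and 5.34 CPM, below its lowest control of 6.76 (log2 fold change -0.57 ± 0.12 (SE), adjusted p = 0.000789), and kept the call in every fit tried. Both siWT1 libraries lay below all 4 controls in 26.5% of all genes and 34.1% of the members tested. H2BC11 had 1.09 and 1.32 CPM (log2 fold change -0.82 ± 0.20 (SE), adjusted p = 0.00326), H3C8 0.324 and 0.459 (log2 fold change -0.86 ± 0.27 (SE), adjusted p = 0.0185) and H2AC11 0.438 and 0.957 against 1.18, 1.25, 1.56 and 1.89 in controls (log2 fold change -1.05 ± 0.31 (SE), adjusted p = 0.0108). H2BC6 had 0.210 and 0.459 CPM (log2 fold change -1.05 ± 0.39 (SE), adjusted p = 0.0384). Apart from H2AC6, each of the 8 lost its call without siWT1 replicate 1, and 1 of the 8 then remained. Since WT1 itself was at under 0.5 CPM in controls, the fall of the target RNA could be followed on few reads only.

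A direct contrast of siMECOM with siWT1, also added after the values were seen, called 24 of the 44 higher and 0 lower, beside 23.9% and 21.3% of all genes. For the 0 lower, DESeq2 called 0 and no member had an unadjusted p under 0.05. The median was 1.20. H3C10 was 4.32-fold higher (log2 fold change 2.11 ± 0.23 (SE), adjusted p = 7.27e-07), and H2AC6 4.02-fold (log2 fold change 2.01 ± 0.13 (SE), adjusted p = 4.91e-10). Between the non-targeting pools no member was called, beside 0.242% of all genes higher in siNT1 and 0.0571% lower. There 2 members, both lower in siNT1, had an unadjusted p under 0.05, and DESeq2 called 0.

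The counted gene models differ in whether they reach past the stop codon, and the members were sorted by this after their values were seen, as a description. In 26 members, called extended here, a model is spliced or runs at least 100 bases past the stem-loop, and 22 of these were tested. In 32 members, 16 of them tested, the model holds the coding sequence alone and so no stem-loop. The remaining 13, with 6 tested, have short untranslated ends. In siPAX8, 12 extended members rose and 2 fell with a median of 1.00, and of the coding-only members 2 rose and 4 fell with a median of -0.64, beside 26.9% of all genes higher and 25.4% lower. The 4 of 16 coding-only fallers are near that background. The siSOX17 medians were 0.88 in extended and -0.84 in coding-only members. In siMECOM both classes had a positive median, 1.00 and 0.50, and no member of either fell. The direct contrast of siMECOM with siPAX8 gave 6 higher and 0 lower of 16 coding-only members, and 5 higher and 4 lower of 22 extended ones, beside 24% and 23.1% of all genes, to which the extended counts are near. Extended members were read more deeply, with a median of 1616 reads over the 14 libraries against 150.5 in coding-only ones, so the calls rest on unequal depth. H2BC12 and H1-2 are coding-only in the annotation although listed as polyadenylated, and H2BC12 rose in all 4 of the groups siPAX8, siSOX17, siDual and siMECOM.

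**Figure D4:**
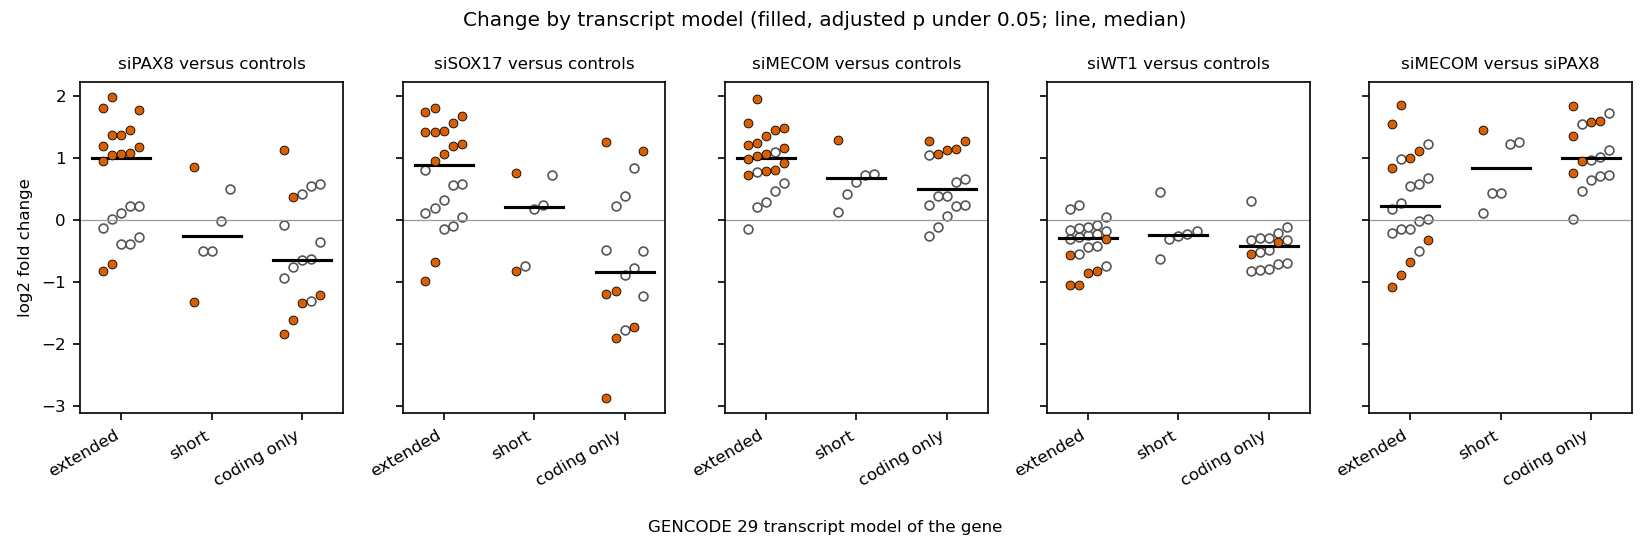
log2 fold change of the 44 histone genes tested (points) in 5 comparisons, by the class of their GENCODE 29 model: extended (22), short (6) or coding sequence alone (16); filled points have an adjusted p under 0.05 and lines are medians. The extended and coding-only medians lie on opposite sides of 0 in siPAX8 and siSOX17 and on the same side in siMECOM and siWT1.

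Many H2A and H2B genes sit head to head, so that a short stretch of DNA between them starts both. There were 12 pairs of members with starts at most 500 bases apart, and in 9 both partners were tested. H2BC17 is counted in both numbers with H2AC17 and again with the H3 gene H3C12, whose model overlaps the locus of H2AC17. H2BC4 and H2AC6, 218 bases apart, rose together in siPAX8 (1.06 and 1.76 on the log2 scale) and in siMECOM (1.24 and 1.44). H2BC8 and H2AC8, 282 bases apart, also rose together (1.37 and 0.85 in siPAX8). H2AC25 and H2BC26 did so in siPAX8 (1.46 and 1.37). In siSOX17 and siMECOM H2AC25 rose (1.19 and 0.78) while H2BC26 was not called (0.58 and 0.29). H2BC21 and H2AC20, 322 bases apart on chromosome 1, went opposite ways in siPAX8. There H2BC21 was at 2.12 and 4.10 CPM (log2 fold change 1.08 ± 0.24 (SE), adjusted p = 0.00101), while H2AC20 fell by 1.22 on the same scale. In siSOX17 the partners were at 0.95 and -1.19, and in siDual at 1.62 and -1.15. In siMECOM H2BC21 rose (1.35) and H2AC20 was not called (-0.26). In siSOX17 H2AC7 rose (1.26) and its partner H2BC7 was not called (-0.15). H2BC7 had 90 reads over all libraries, with 8 and 2 in siSOX17. Differences between partners were not tested. H2BC21 is counted over a model that runs 1729 bases past its stem-loop, and H2AC20 over 390 bases of coding sequence. The siPAX8 call of H2BC21 was lost without siPAX8 replicate 2.

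**Figure D5:**
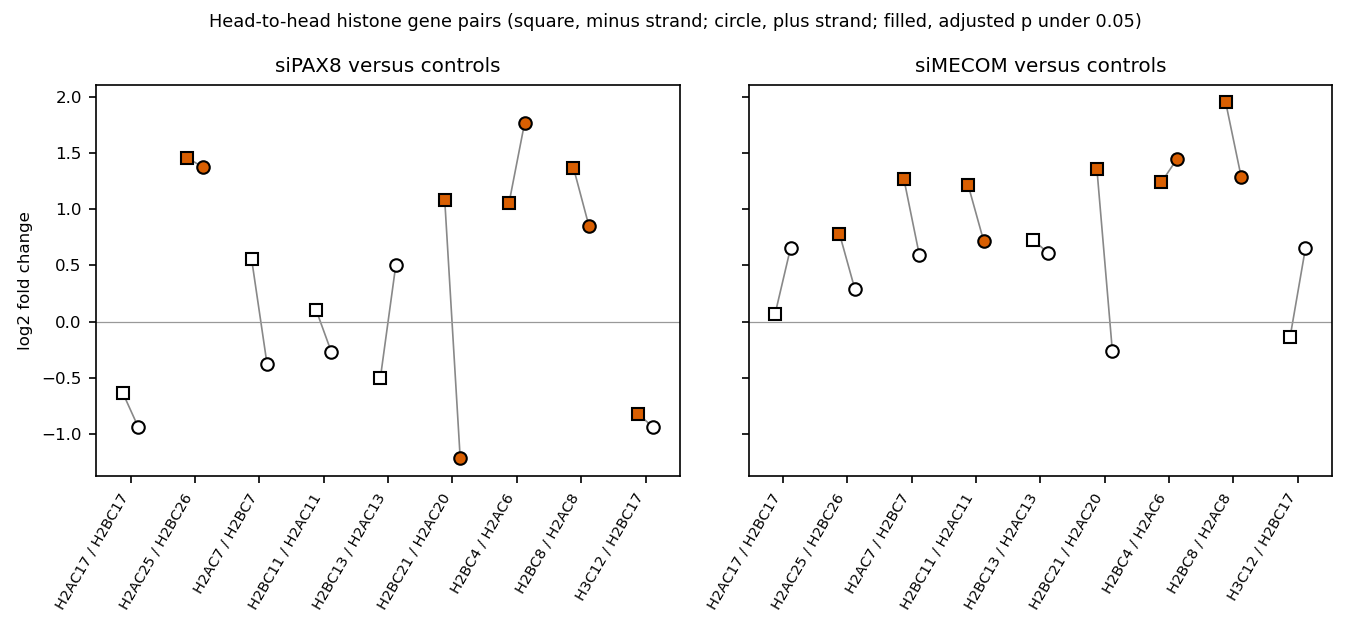
log2 fold change against controls in siPAX8 (left) and siMECOM (right) for the 9 head-to-head pairs with both partners tested; squares are the minus-strand and circles the plus-strand gene, and filled symbols have an adjusted p under 0.05. The line for H2BC21 and H2AC20 crosses 0 in both panels, from 1.08 to -1.22 and from 1.35 to -0.26.

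Promoters of the families carry known histone elements. RefSeq promoter windows, from 250 bases before to 50 after the start on GRCh38, matched 64 of the 70 symbols, some with several starts. The octamer ATTTGCAT, searched on both strands, was present in 68.8% of 16 H2A and 75% of 20 H2B windows, and in 1.77% of all 35116. CCAAT was in every H1, H2A, H2B and H3 window, in 23.1% of the 13 H4 windows and in 34.6% of all windows. TATAAA was in 11.5% of all windows and in 50 to 75% of those of each family. By response in siPAX8, the octamer was in 8 of 18 windows of risers (44.4%), 2 of 5 of fallers (40%) and 10 of 22 of members not called (45.5%). These sets mix families and the faller windows are few, so the shares cannot show whether the motif and the response are related.

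Most listed genes that make, process and use histone messages fell in siPAX8, siSOX17 and siDual, where 25.4%, 25.5% and 27.3% of all genes did. SLBP had 50.7, 47.4, 49.1 and 43.3 CPM in controls and 26.8 and 26.0 in siPAX8, 32.9 and 35.6 in siSOX17 and 30.005 and 32.5 in siDual. It fell in each of these 3 groups, most in siPAX8 (log2 fold change -0.85 ± 0.08 (SE), adjusted p = 2.36e-08), and was not called in siMECOM (log2 fold change -0.19 ± 0.07 (SE), adjusted p = 0.0625) or siWT1 (log2 fold change 0.16 ± 0.07 (SE), adjusted p = 0.0842). NPAT fell in siPAX8 (log2 fold change -0.49 ± 0.08 (SE), adjusted p = 3.87e-05), siSOX17 (-0.51) and siDual (-0.58). It was at 0.05 in siMECOM, not called, and rose in siWT1 (log2 fold change 0.49 ± 0.08 (SE), adjusted p = 3.81e-05). Among the 12 genes for histone transcription and S-phase entry, 10 fell in siPAX8, 11 in siSOX17 and 10 in siDual, and none rose there. In siMECOM 3 fell and 1 rose, and in siWT1 3 fell and 3 rose, near the backgrounds of 16.1% and 19.8% lower. CCNE1, which encodes cyclin E1, gave -2.04, -2.21, -2.39 and -0.55 on the log2 scale in the first 4 groups and fell in each.

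Of 14 genes for histone 3′ end processing, 10 fell in siPAX8, 7 in siSOX17 and 11 in siDual, and 0, 1 and 1 rose. In siMECOM 1 fell and 1 rose, and in siWT1 0 fell and 4 rose. For this and the next lists, 16.1% of all genes fell and 16.5% rose in siMECOM, and 19.8% fell and 17.7% rose in siWT1. CPSF2, the cleavage complex partner of the histone endonuclease, fell in siPAX8 (-1.02), and SRRT, a cap-binding complex partner, fell in siPAX8 (-0.85) and rose in siWT1 (0.64). In the translation and decay list 7 of 11 tested fell in siPAX8, among them UPF1 (-0.77), a helicase of messenger RNA decay. The numbers that fell were 7, 6, 4 and 0 in siSOX17, siDual, siMECOM and siWT1. In this list 2 rose in siPAX8, 1 each in siSOX17, siDual and siMECOM, and 3 in siWT1. Histone chaperones fell in 21 of 22 cases in siPAX8, 16 in siSOX17, 18 in siDual and 7 in siMECOM, with 1, 1, 0 and 1 rising. CHAF1A of the replication-coupled assembly factor fell by 1.89 on the log2 scale in siPAX8. In siWT1, 3 chaperones fell and 4 rose, near the shares of all genes.

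S-phase replication genes fell in the first 3 knockdowns. All 30 were called higher in siMECOM than in siPAX8 when these were compared directly, beside 24% of all genes. The median log2 fold change of the 30 was 1.47. In siPAX8 30 of 30 fell with a median of -1.65, in siSOX17 30 of 30 with -1.19, and in siDual 30 of 30 with -1.52. The shares of all genes that fell were 25.4%, 25.5% and 27.3%. In siMECOM 16 fell and 1 rose with a median of -0.25, beside 16.1% of all genes lower and 16.5% higher. In siWT1 4 fell and 5 rose, near the 19.8% and 17.7% of all genes. Their summed level was 2661 to 2885 CPM in controls, 826 and 821 in siPAX8 and 2330.0 and 2242 in siMECOM. MCM6, a subunit of the replicative helicase, changed by -2.96 in siPAX8, -1.93 in siSOX17 and -0.26 in siMECOM. In every library of siPAX8, siSOX17, siDual and siMECOM the summed histone level was above all controls and the summed level of the replication genes below all controls.

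Of 12 replacement histones tested, 10 fell in siPAX8 with a median of -1.02, 9 in siSOX17 with -0.65 and 9 in siDual with -0.58, and none rose. H2AX, the variant phosphorylated at DNA breaks, gave -1.55, -1.68 and -1.82 in these groups. In siMECOM 1 of the 12 rose and 1 fell, with a median of 0.04. In siWT1 7 fell and 1 rose. All genes fell in shares of 25.4% in siPAX8, 25.5% in siSOX17, 27.3% in siDual, 16.1% in siMECOM and 19.8% in siWT1. The summed level of the 12 was 1559.6 to 1666 CPM in controls, so it was roughly an order of magnitude above that of all 71 replication-dependent rows in the same libraries (118 to 169).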

How the data were processed

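The authors deposited 1 table of raw read counts per gene with exon coordinates and gene lengths, per the file headers. STAR 2.5.1b, featureCounts 1.6.3 and hg38 are named in the submitters' processing notes; the annotation release, strand setting, handling of multi-mapping reads and RNA selection are not given in the sources used here. Of 58219 row IDs, 57881 matched GENCODE 29, and symbols came from the gene name table and, for 4 members, RefSeq synonyms.

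Counts of the 14 libraries were fitted together with edgeR 4.0.16 in R 4.3.3 (TMM scaling, filterByExpr with a minimum count of 10 and a total of 15, 1 coefficient per group, quasi-likelihood tests). The 21032 genes left were tested in 9 planned and 2 added contrasts, with Benjamini-Hochberg adjustment over all of them and a threshold of 0.05. Each knockdown was set against the average of the siNT1 and siNT2 coefficients. CPM values are the deposited counts divided by the library total times its TMM factor (0.907 to 1.088) and scaled to 1000000, also in sums over lists, ratios and floors; shares in percent are of the unadjusted total. Errors are standard errors of the fit. The contrasts of siMECOM with siPAX8 and siWT1, and the sorting by gene model, were added after values were seen. DESeq2 1.42.0, other scalings, filters, control sets, left-out libraries and a replicate term were the alternatives. The procedure was tested on simulated data.

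The members and gene lists were chosen with earlier results of these data known. Genes are named by rule: members of the polyadenylated and germ line lists, the 3 tested members of each family highest per length, the 5 called members with the largest rise and fall in each comparison with controls, members at 0, and SLBP, NPAT and up to 3 genes of each other list. Other genes (among them H2BC11 and H3C8 outside siWT1, H4C12, H2AC8, H2BC15 and H2AC13) were chosen after their values were seen. Intervals and floors cover counting error only, because reads carry no molecular identifiers.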

Additional observations from a re-analysis of the deposited data

Results flagged for a closer look

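The change with both pools was compared with the sum of the single changes on the log2 scale, a test of whether each pool acts alike with and without the other. Of 44 members tested, 9 were lower than that sum and 2 higher in edgeR's quasi-likelihood test, beside 13% and 12% of all genes. Lower were H4C8 (-1.77), H3C6 (-1.56), H2AC6 (-1.47), H2BC5 (-1.24), H2BC6 (-1.23), H2BC12 (-0.996), H2BC15 (-0.96), H2BC4 (-0.93) and H4C9 (-0.88). These genes rose in the single knockdowns and in siDual alike, so that the joint rise was smaller than the sum. H2AC6, for example, was at 26.2 and 30.2 CPM in siPAX8, 23.4 and 20.98 in siSOX17 and 25.7 and 28.8 in siDual (log2 fold change -1.47 ± 0.16 (SE), adjusted p = 1.2e-06).

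H4C3 (1.05) and H2AC20 (1.26) were higher than the sum. Both fell in the single knockdowns, and H2AC20 stood at 0.679 and 0.557 CPM in siPAX8, 0.646 and 0.610 in siSOX17 and 0.665 and 0.630 in siDual. The call of H4C3 was lost with DESeq2 and in 6 of 10 fits that left out a library. H2BC6 lost its call in 5 of 10 such fits, H2BC4 in 2 and H2AC20 in 1. PAX8 itself was at 52.8 and 50.6 CPM in siDual and at 32.8 and 38.3 in siPAX8. SOX17 was at 15.9 and 17.7 CPM in siDual and at 15.7 and 13.1 in siSOX17. How the siRNA dose was divided in siDual is not given in the sources used here. The part of dose and of target level in these values was not tested.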

How the results depend on the processing

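No called member reversed its direction under any alternative. Counts within 1.5 times of those reported are not listed. With DESeq2, 4 members fell in siPAX8 and 1 exceeded additivity. Without a filter, 7 fell in siDual, 4 were higher in siDual than in siPAX8 and 4 exceeded additivity. At 1 CPM in at least 2 libraries, 26 members were tested, of which 4 fell in siPAX8, 4 in siSOX17 and 2 in siDual. With siNT1 as the only control, 4 fell in siSOX17, 4 in siWT1 and 1 exceeded additivity, and with siNT2 alone 4 fell in siPAX8. With only the groups compared in the fit, 1 exceeded additivity. The cause of these shifts was not tested, beyond fewer members passing the stricter filter.

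Leaving out 1 library at a time, 4 to 8 members fell in siPAX8, 3 to 8 in siSOX17 and 1 to 10 in siWT1. The fall to 1 came without siWT1 replicate 1, and 5 fell without siNT1 replicate 2 or siNT2 replicate 2. The number higher in siDual than in siPAX8 was 1 to 3, that than in siSOX17 1 to 2, that above additivity 1 to 3 (1 without siNT1 replicate 1 or 2, siNT2 replicate 2, siPAX8 replicate 2, siSOX17 replicate 2 or siDual replicate 1), and that lower in siMECOM than in siPAX8 1 to 5. Rises against controls ranged over 11 to 16 in siPAX8, 12 to 16 in siSOX17, 13 to 20 in siDual and 15 to 22 in siMECOM.

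The labels number the replicates, but same-numbered libraries did not deviate together throughout: 13 of 21 pairs of groups had a correlation over 0.1, in a range of -0.10 to 0.50, so a number was not taken as a pairing. With a replicate block, 4 members were higher in siDual than in siPAX8 and 4 higher than in siSOX17. The block moved no other count by over 1.5 times (12 fell in siWT1, the limit, and 22 rose in siMECOM).

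Depth limits the low members most. Calls on H3C2, H4C4, H2AC16 and H2AC14 rest on 2 to 11 reads in the knockdown group. Gene models without an untranslated end count fewer bases, and members with near-identical copies cannot be told apart. With 2 libraries a group, every call rests on a spread pooled over 7 groups.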

Other observations

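H2BC15, an H2B gene chosen here after its values were seen, was as regular as the better-known members. It had 1.67, 1.62, 1.56 and 1.94 CPM in the controls and 3.06 and 3.52 in siPAX8, 3.48 and 4.48 in siSOX17, 4.18 and 3.76 in siDual, 3.06 and 2.86 in siMECOM and 1.83 and 1.38 in siWT1. It rose in the first 4 of these groups (log2 fold changes 0.95, 1.23, 1.22 and 0.80) and kept those calls in every fit tried.

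H2AC11 and its head-to-head partner H2BC11 were both higher in siMECOM than in siWT1. H2AC11 stood at 2.27 and 2.49 CPM in siMECOM, 0.438 and 0.957 in siWT1 and 0.497 and 0.981 in siSOX17, against 1.18, 1.25, 1.56 and 1.89 in controls. H2BC11 stood at 4.36 and 5.47, 1.09 and 1.32 and 2.56 and 2.31 CPM in the same groups. Directly compared, siMECOM exceeded siWT1 in H2AC11 (log2 fold change 1.77 ± 0.33 (SE), adjusted p = 0.000217) and in H2BC11 (log2 fold change 2.03 ± 0.21 (SE), adjusted p = 3.01e-07). In siSOX17 H2AC11 fell (log2 fold change -0.98 ± 0.32 (SE), adjusted p = 0.0162) and H2BC11 was not called (log2 fold change 0.20 ± 0.19 (SE), adjusted p = 0.399); the H2AC11 call was lost without siSOX17 replicate 1.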
